A study of Mus musculus with 5 samples.

Results

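The 149 cells described here are the middle tertile (the middle of 3 equal groups) of mouse hepatocytes along a score that runs from the portal to the central side of the liver lobule. They come from 449 single hepatocytes of 4 mice, out of 454 cells and 5 mice in the deposited table. All mice were male C57BL/6J littermates, 8 weeks old when the feeding began, and were kept for 12 weeks either on a regular chow diet (LFD) or on a high fat diet (HFD), and single-cell libraries were made by Drop-seq, in which each captured mRNA molecule is tagged with a unique molecular identifier (UMI). LFD mice 1 and 2 and HFD mice 2 and 3 are used. HFD mouse 1 has 5 cells and was left out. The labels name no transgene, and 1 library was made per mouse. Levels are given as CPM, that is UMIs per 1000000 UMIs of the cells summed.

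Members were chosen from measured values. For each cell, P is the summed level, per 10000 UMIs, of the pericentral genes Cyp2e1, Glul, Oat, Cyp1a2, Rgn and Lect2, and Q is the same sum of the periportal genes Cyp2f2, Sds, Hal, Hsd17b13, Ass1 and Uroc1. Cells were ranked within each mouse by log((P + 1)/(Q + 1)), and the middle tertile of each ranking was taken, which gave 44 cells from LFD mouse 1, 28 from LFD mouse 2, 69 from HFD mouse 2 and 8 from HFD mouse 3. The outer tertiles, 149 pericentral and 151 periportal cells, serve as the comparison. Since cells were ranked mouse by mouse, the members cover a range of ranks in each animal and not a position measured in tissue.

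Blood enters the liver lobule at the portal tract and leaves at the central vein, and hepatocytes differ in their tasks along this path. Periportal cells are known for gluconeogenesis, urea synthesis and secretion of plasma proteins, and pericentral cells for glutamine synthesis, bile acid synthesis and the metabolism of drugs. The cells between them, called midlobular, have few genes of their own. Those best known are Hamp, which encodes the iron hormone hepcidin, and Igfbp2, which encodes a secreted protein that binds insulin-like growth factors.

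The values that chose the members were as follows. The median cell of the middle tertile had P at 16.3 and Q at 35.4 per 10000 UMIs, against 67.6 and 11.4 in the pericentral tertile and 2.57 and 45.5 in the periportal tertile. All 149 members had UMIs from both sets of genes, as did 121 pericentral and 91 periportal cells. The cut was not at a gap. In LFD mouse 1 the scores on the 2 sides of the periportal cut were -1.30 and -1.28, and those on the 2 sides of the pericentral cut were 0.24 and 0.28. In LFD mouse 2, whose members spanned the widest range, the same scores were -2.71 and -2.63, then 0.70 and 0.81. For HFD mouse 2 they came to -1.75 and -1.70, then 0.54 and 0.59. HFD mouse 3 had -1.33 and -1.28, then 0.00 and 0.00. In all, 44 cells lay within 0.1 of a cut, so the middle tertile is a stretch of a continuous range rather than a separate class.

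**Figure D1:**
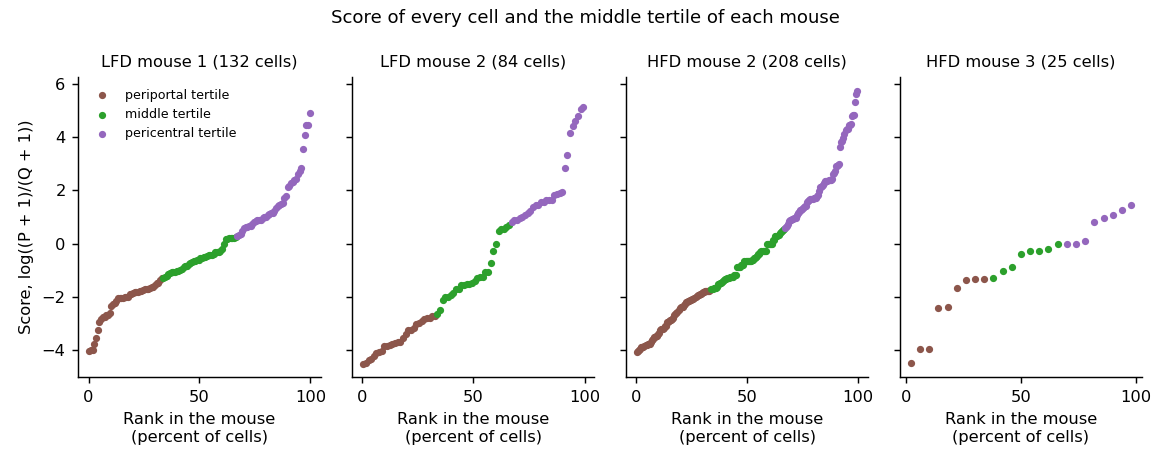
Score of every cell (vertical axis, natural log of the pericentral over the periportal sum) against its rank in its mouse (horizontal axis, percent of cells), 1 panel per mouse, with the middle tertile in green. Scores rise without a gap at the cuts, and HFD mouse 3 adds 25 cells in all.

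Pooled over mice, the members' cells were shallower than those on the portal side, and in LFD mouse 2 they were deeper (median 3427.5 against 3192.5 UMIs). The median member had 2187 UMIs and 889 genes, against 2244 UMIs and 922 genes in the pericentral and 2802 UMIs and 1038 genes in the periportal tertile, and the members together held 478862 of 1471191 UMIs. By mouse, the median member had 2747.5 UMIs in LFD mouse 1, 3427.5 in LFD mouse 2, 1841 in HFD mouse 2 and 1447 in HFD mouse 3, so depth moved with diet, and its part in the diet differences below was not tested. The summed middle tertile held 149320, 124918, 186718 and 17906 UMIs in these mice, so that 3 UMIs make 168 CPM in HFD mouse 3 and 16.1 to 24.0 in the others. No cell barcode was shared between mice. All 18 genes of a list of hepatocyte markers were detected in the members. Of the markers of other cells, the summed level by mouse ran from 0 to 53.6 CPM for macrophages. Of these, 5 of 11 genes in the table were detected, Clec4f, Cd5l and Vsig4 among them, with Csf1r and Cd68 at 0. The range was 26.8 to 134 for sinusoidal endothelium (7 of 12 detected, Stab1, Stab2 and Kdr among them, Pecam1 at 0). It was 0 to 168 for stellate cells (5 of 12 detected, Dcn and Colec11 among them, Lrat and Pdgfrb at 0). Cholangiocyte markers had 8.01 to 55.8 (3 of 8 detected, Sox9 and Spp1 among them, Krt19 and Epcam at 0). Red cell markers had 0 to 223 (4 of 6 detected). The endothelial markers held 43 UMIs in the members, 31 in pericentral and 28 in periportal cells, and the macrophage markers 12, 15 and 5. Of the members, 4 had 3 or more UMIs of another cell type's markers. T or NK, B cell and neutrophil markers were all at 0 in the members.

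Few genes stood out in the middle tertile, and Igfbp2 came nearest to a peak. For the tests, UMIs were summed per mouse and tertile and fitted with limma voom, with the mouse as a block, over 1631 genes. Fold changes are log2 values ± SE, and adjusted p-values are Benjamini-Hochberg values over all these genes. The 12 genes of the score were left out. No gene passed as higher or as lower than both outer tertiles when the larger of its 2 p-values was adjusted (0 higher and 0 lower, a background of 0%, with limma voom and also with limma-trend). At an unadjusted larger p under 0.05, 20 genes (1.23%) were above and 11 (0.674%) below both. The fitted value of the middle lay above both sides for 493 genes (30.2%) and below both for 352 (21.6%). When each side was adjusted by itself, a reading added after the data were seen, 1 gene (0.0613%) passed on both, and this was Igfbp2.

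Igfbp2 (ENSMUSG00000039323.18, chromosome 1, 72824503 to 72852474, plus strand, GRCm38) was higher in the middle than in either outer tertile in 4 of 4 mice. In LFD mouse 1 its level was 403 CPM in the pericentral, 522 in the middle and 312 in the periportal tertile. LFD mouse 2 had 255, 456 and 292, HFD mouse 2 had 122, 219.6 and 98.4, and HFD mouse 3 had 171, 279 and 87.0. The middle was thus the highest tertile in every animal, although the LFD and HFD mice sat at different levels and the 4 mice overlapped between tertiles. Over the 4 mice the level was 238 ± 123 in the pericentral, 369 ± 143 in the middle and 197 ± 121 in the periportal tertile (SD, n = 4). The fitted difference was 0.82 ± 0.20 against the pericentral tertile (limma adjusted p = 0.0032) and 0.81 ± 0.21 against the periportal tertile (limma adjusted p = 0.0336), and the larger of the 2 p-values, 0.000309, was the smallest such value of all genes (limma adjusted p = 0.504). In HFD mouse 3 the levels rest on 3 pericentral, 5 middle and 2 periportal UMIs, too few to show a rise in that mouse by itself.

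Within single cells, Igfbp2 was also met more often in the middle. It had a UMI in 78 of 149 members, or 52.3% (95% exact binomial interval 44.0 to 60.6), against 38.9% of pericentral cells (31.1 to 47.2) and 43.0% of periportal cells (35.0 to 51.4), the latter being the deeper cells. After each cell was thinned to 1339 UMIs, which left out 19 members, 16 pericentral and 10 periportal cells, the shares were 36.9% (28.6 to 45.8), 21.8% (15.1 to 29.8) and 17.7% (11.8 to 25.1). These intervals cover counting error only. By mouse, the middle had the highest share in 4 of 4 mice after thinning, and in 2 of 4 (LFD mouse 2 and HFD mouse 2) before it. In HFD mouse 3, 1 cell of each tertile had a UMI after thinning, of 4 members, 7 pericentral and 9 periportal cells left. The highest share there thus comes from the fewest cells. The richest member gave 12 of the 181 Igfbp2 UMIs of the middle tertile, or 6.63%, so no single cell carried the pooled sum. Of the 8 members of HFD mouse 3, however, 2 had an Igfbp2 UMI, and 1 of these gave 3 of the 5 UMIs, or 60.0%. When each mouse was divided into 5 equal ranks instead, the level from the portal to the central end was 191 ± 130, 227 ± 138, 386 ± 179, 313 ± 147 and 211 ± 87.6 CPM (SD, n = 4). The middle rank was highest in LFD mouse 1 (569), LFD mouse 2 (508) and HFD mouse 2 (212). For HFD mouse 3 the rank next to it on the central side was highest (311 against 254, on 3 UMIs each).

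Hamp (ENSMUSG00000050440.8, chromosome 7, 30942368 to 30944032, minus strand, GRCm38) did not pass. Its level in the pericentral, middle and periportal tertiles was 995, 763 and 581 CPM in LFD mouse 1 and 402, 360.2 and 137 in LFD mouse 2. HFD mouse 2 had 1079, 1114 and 1002, and HFD mouse 3 had 1080.3, 3127 and 2655. In HFD mouse 3, 1 cell gave 26 of the 56 Hamp UMIs of the middle, or 46.4%. The middle was highest in the HFD mice only, while both LFD mice were highest on the pericentral side. The fitted differences were 0.33 ± 0.17 against the pericentral tertile (limma adjusted p = 0.205) and 0.35 ± 0.17 against the periportal tertile (limma adjusted p = 0.426). Hamp had a UMI in 73.8% of members (66.0 to 80.7), 65.8% of pericentral and 64.2% of periportal cells, and in 56.2%, 57.1% and 45.4% after thinning. In 5 equal ranks, Hamp was highest in the rank next to the middle on the central side in LFD mouse 1 (1521), LFD mouse 2 (705) and HFD mouse 2 (1328), and in the middle rank in HFD mouse 3 (3391). Its neighbour Hamp2, a near copy of Hamp in sequence, had 26 UMIs in the members, and reads of the pair may be split between them. Of the 2 genes that mark the midlobular zone, neither passed above both sides together, Igfbp2 was highest in the middle in 4 of 4 mice and Hamp in 2 of 4, and the members are called the middle tertile below.

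Against the mean of both outer tertiles, 7 genes (0.429%) were higher in the middle and 0 were lower (0%, with 47 lower at an unadjusted p under 0.05 by limma voom). They were Serpina1e, a member of the alpha-1-antitrypsin family of secreted protease inhibitors, at 0.62 ± 0.11 (limma adjusted p = 0.0039); Aspg, an asparaginase, at 0.96 ± 0.20; albumin (Alb) at 0.34 ± 0.07; Igfbp2 at 0.81 ± 0.17; Agxt, which detoxifies glyoxylate, at 0.59 ± 0.13; Aamp at 0.88 ± 0.20; and Pigr, the receptor that carries polymeric immunoglobulin into bile, at 0.46 ± 0.11 (limma adjusted p = 0.0375). All 7 passed against the pericentral tertile, but against the periportal tertile 1 did, Igfbp2. For Serpina1e, Aspg, Alb, Agxt and Pigr the pericentral level was also below the periportal level. Aamp was above both sides in 3 mice, with 154, 128 and 225 CPM in the middle of LFD mice 1 and 2 and HFD mouse 2, and below both in HFD mouse 3, with 112. Alb, at 40738, 44965, 46407 and 46967 CPM in the middle tertile of LFD mice 1 and 2 and HFD mice 2 and 3, lay above the pericentral level (21259 to 31684) in every mouse and below the periportal level in every mouse. Serpina1e showed the same order in 3 mice, with 7065, 7517 and 3010 in the middle against 7303, 8248 and 4105 on the portal side, while HFD mouse 3 had 391 against 218. Without HFD mouse 2 the count of 7 fell to 0, without LFD mouse 2 to 1 and without LFD mouse 1 to 4, and each of the 7 calls was lost in at least 9 alternative fits. The Igfbp2 call was lost without LFD mouse 2 (0.76, limma adjusted p = 0.213) or HFD mouse 2 (0.71, limma adjusted p = 1.00), and with the score taken after thinning (0.56, limma adjusted p = 0.326).

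**Figure D2:**
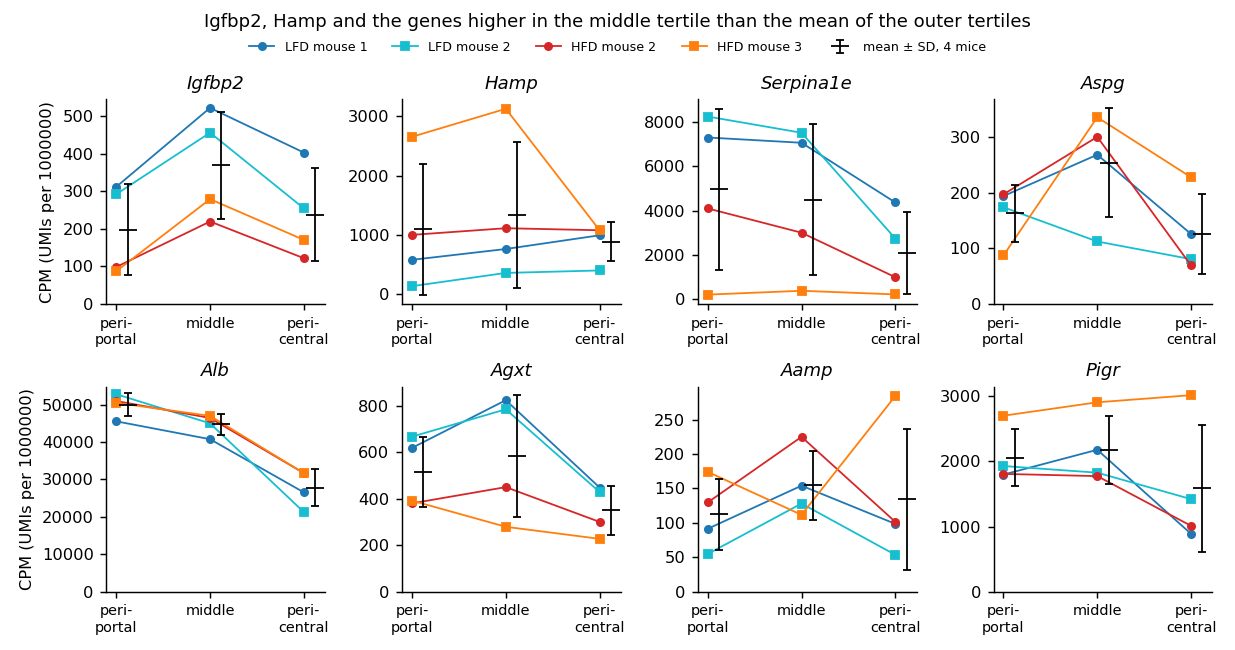
Level in CPM (vertical axis, 1 scale per gene) in the periportal, middle and pericentral tertile, 1 line per mouse, with the mean ± SD of the 4 mice in black. Igfbp2 is highest in the middle in every mouse, in HFD mouse 3 on 5 UMIs. Alb lies between its periportal and pericentral level in every mouse, and Hamp differs between mice.

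The remaining genes nearest to a peak or a dip did not pass. Among genes above both sides in at least 3 of 4 mice, and leaving out predicted gene models, the smallest larger p-values after that of Igfbp2 belonged to Aamp (0.0042), Acbd5, a tether between peroxisomes and the endoplasmic reticulum (0.0086), the keratin Krt8 (0.0152), the non-coding RNA Gas5 (0.0175), BC031181 (0.0192) and Serpina3n, a secreted protease inhibitor (0.0227), with limma adjusted p = 1.00 for each. Serpina3n was above both outer tertiles in 4 of 4 mice (147, 184, 107 and 168 CPM in the middle of LFD mice 1 and 2 and HFD mice 2 and 3) and the others in 3 of 4. In all, 7 genes (0.429%) were above both outer tertiles in 4 of 4 mice. They were Igfbp2, Serpina3n, Acat3, Glrx3, Mpp6, Tmco1 and Pbld1, and many of their values rest on few UMIs.

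On the side of a dip, under the same conditions, the smallest larger p-values were those of Adtrp (0.0109), Dpy30 (0.0112), Rabep1 (0.0146), Cd59a, an inhibitor of the complement membrane attack complex (0.0148), Ebp, an enzyme of cholesterol synthesis (0.0368), and the mitochondrial protease subunit Clpp (0.0378), again with limma adjusted p = 1.00 for each. Adtrp had 67.0, 48.0, 102 and 55.8 CPM in the middle of LFD mice 1 and 2 and HFD mice 2 and 3, against 126, 134, 146 and 171 on the central and 151, 137, 107 and 131 on the portal side. It was lower in the middle in 4 of 4 mice, with differences of -0.70 ± 0.26 and -0.79 ± 0.27. In all, 22 genes (1.35%) were below both outer tertiles in 4 of 4 mice, among them Adtrp, Cd59a, Clpp, the chemokine Cxcl12 and the valine-degrading enzyme Aldh6a1. In the middle of HFD mouse 3, 1 UMI makes 55.8 CPM, so the Adtrp value there rests on 1 UMI. For genes at such levels the order in that mouse can turn on few UMIs.

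Most of what set the middle tertile apart was its place between the outer tertiles, and it lay closer to the portal side. Against the pericentral tertile, 156 genes (9.56%) were higher and 66 (4.05%) lower in the middle. Against the periportal tertile, 18 (1.10%) were higher and 4 (0.245%) lower. With library totals in place of trimmed-mean factors, the split against the pericentral tertile turned to 66 higher and 131 lower, the median of all genes going from 0.09 to -0.10 on the log2 scale, and that against the periportal tertile was 22 and 3 (median from -0.01 to 0.03). The 222 calls against the pericentral tertile fell to 6 without HFD mouse 2, to 103 without LFD mouse 2 and to 145 without HFD mouse 3, and the 22 against the periportal tertile fell to 0 without HFD mouse 2 and to 10, 11 and 13 without each of the other mice. Between the outer tertiles, 121 genes (7.42%) were higher on the central and 231 (14.2%) on the portal side, against 237 and 114 with library totals, and the 352 calls fell to 41 without HFD mouse 2 and to 212 without LFD mouse 2. On a scale where 0 is the periportal and 1 the pericentral level (as fitted log2 values), the middle tertile sat at a median of 0.42 for the 121 genes, with 75 of them (62.0%) nearer the portal level, and at 0.25 for the 231, with 205 (88.7%) nearer the portal level. With library totals these were 0.40 (67.1% of 237) and 0.29 (84.2% of 114). This is a description, since these genes were picked by the outer tertiles of the same cells.

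Pericentral genes other than those of the score were mostly lower in the middle than on the central side. Of 46 genes in this list, 27 had enough UMIs to be tested. Against the pericentral tertile 0 were higher and 18 lower, with a median of -0.80 against 0.09 over all genes, and against the periportal tertile 8 were higher and 0 lower, with a median of 0.43 against -0.01. Over all genes, 9.56% were higher and 4.05% lower than the pericentral tertile, and 1.10% higher and 0.245% lower than the periportal tertile. The drug-metabolising cytochrome Cyp2c29 stepped down on both sides. It had 2652, 2733, 1051 and 398 CPM on the central side, 670, 664, 391.0 and 391 in the middle and 194, 128, 71.5 and 609 on the portal side of LFD mice 1 and 2 and HFD mice 2 and 3. HFD mouse 3, with 8 or 9 cells a tertile, did not follow the order of the other mice. The fitted steps were -1.50 ± 0.19 from the pericentral tertile and 2.02 ± 0.23 above the periportal tertile, with a limma adjusted p under 0.05 for each.

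Of other pericentral genes, 3 chosen after their values were seen were lower in the middle than on the central side and did not pass against the portal side, which does not show that the levels were equal. Cyp2a5, another drug-metabolising cytochrome, differed by -3.35 ± 0.42 from the central side and lay 0.90 ± 0.51 above the portal side (limma adjusted p = 0.499). It had 412, 710.0, 154 and 682 CPM on the central side and 40.2, 80.1, 0 and 55.8 in the middle. The fatty aldehyde dehydrogenase Aldh3a2 (-2.60 ± 0.34) and the fatty acid hydroxylase Cyp4a10 (-1.86 ± 0.32) also fell from the central side, and their differences from the portal side were 0.43 and 0.09 (limma adjusted p = 0.725 and 0.952).

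Of the 18 genes above the portal level in the middle, 13 were also below the pericentral level. Besides Cyp2c29 they include Cyp2c50, Csad, which makes the taurine precursor hypotaurine from cysteine sulfinic acid, the bile acid and drug transporter Slco1b2, the retinal dehydrogenase Aldh1a1, the lipid droplet protein Fitm1, the glutathione transferases Gstm1 and Gsta3, and the urinary pheromone carriers Mup17 and Mup9. Slco1b2 had 2097, 2827, 3084 and 1819 CPM on the central side, 1038, 993, 1676 and 1564 in the middle and 639.9, 511, 854 and 1349 on the portal side, an order kept in 4 of 4 mice. Aldh1a1 kept it too, with 522, 688, 691 and 670.2 in the middle against 1075 to 1915 on the central and 253 to 510 on the portal side. Mgll, the lipase that splits monoglycerides, was instead at the central level. It differed from the pericentral tertile by -0.05 ± 0.21 and from the periportal tertile by 0.90 ± 0.23 (limma adjusted p = 0.930 and 0.0337).

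Periportal genes outside the score were close to their portal level in the middle. Of 45 genes listed, 38 were tested. Against the pericentral tertile 27 were higher and 0 lower (median 0.63), where 9.56% of all genes were higher and 4.05% lower (median 0.09). Against the periportal tertile 0 were higher and 1 lower (median -0.18), where 1.10% of all genes were higher and 0.245% lower (median -0.01). With library totals the counts against the pericentral tertile were 20 higher and 1 lower. Glutaminase Gls2 was 1.58 ± 0.23 above the pericentral tertile, with 254, 296, 225 and 447 CPM in the middle against 98.6, 147, 73.0 and 114 on the central side, groups that did not overlap. The gluconeogenic enzyme Fbp1 was 1.04 ± 0.12 above it. Neither differed detectably from the portal side (-0.26 and -0.22, limma adjusted p = 0.642 and 0.468). The gene of the list that also passed below the portal tertile was Etnppl, a phosphoethanolamine lyase, at -0.89 ± 0.23 (limma adjusted p = 0.0376), with 121, 168, 118 and 168 CPM in the middle, 24.3 to 56.9 on the central and 228 to 261 on the portal side. Its mice did not overlap between any of the tertiles. Since Gls2 and Etnppl were picked by fits of the same mice, their lack of overlap is no further support.

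**Figure D3:**
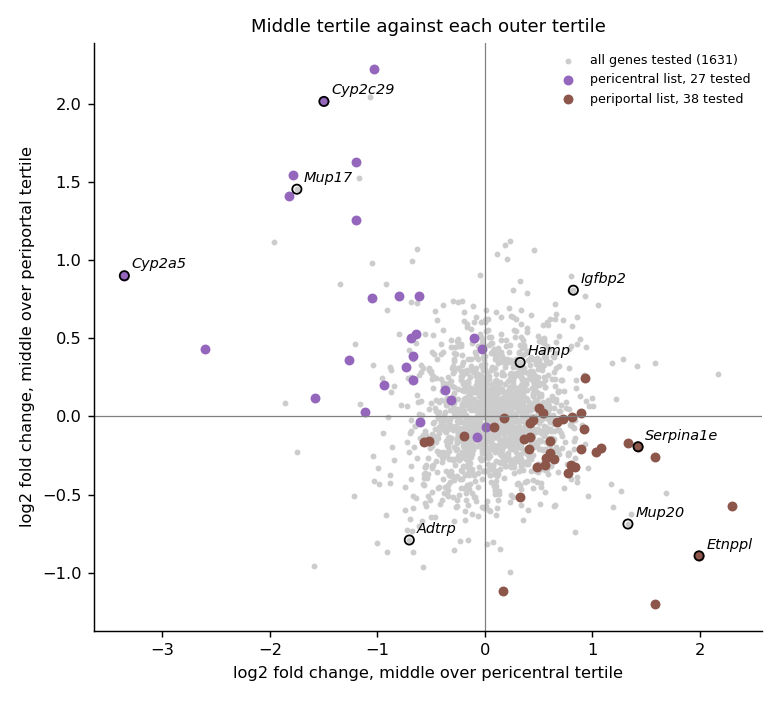
Fitted log2 fold change of the middle over the pericentral tertile (horizontal axis) and over the periportal tertile (vertical axis) for the 1631 genes tested, with the pericentral and periportal lists in colour. A gene peaking in the middle lies at the upper right, where Igfbp2 is, and a dipping gene at the lower left, while most listed genes lie in the other corners or near the horizontal line.

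The major urinary proteins, pheromone carriers made by the male liver, fell on both sides of this order. Of 14 tested, 5 were higher and 3 lower than on the central side (9.56% and 4.05% of all genes), and 2 higher and 1 lower than on the portal side (1.10% and 0.245% of all genes). Mup20 rose in steps from the central side, where it had 4340 to 7475 CPM, through the middle, where it had 11124, 14353, 17502 and 7707, to the portal side, where it had 7878 to 33007 (differences of 1.33 ± 0.11 and -0.69 ± 0.11). Mup17 ran the other way, with differences of -1.75 ± 0.13 from the central and 1.45 ± 0.15 from the portal side. Many genes of this family are near-identical copies, and UMIs may be split between those. Mup20 is a more divergent member.

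Genes of secreted proteins and mRNAs of the mitochondrial genome passed mostly against the central side. Of 26 tested acute phase and plasma protein genes, 16 were higher and 0 lower in the middle than on the central side (median 0.51), where 9.56% of all genes were higher and 4.05% lower, and 0 differed from the portal side. Of 37 complement and coagulation genes, 13 were higher and 0 lower than on the central side, and 2 were lower than on the portal side, the bradykinin precursor Kng1 (-0.41 ± 0.11) and the fibrinogen chain Fgb (-0.36 ± 0.10). Over all genes, 0.245% were lower than on the portal side. All 6 tested mRNAs of the mitochondrial genome were above the central side (median 0.58) and 0 passed against the portal side (median -0.17). With library totals, these counts above the central side were 9, 6 and 4. The share of UMIs from all mitochondrial transcripts, ribosomal RNA included, overlapped between tertiles, with 4.81 to 5.55% in the pericentral, 4.88 to 6.43% in the middle and 5.05 to 5.88% in the periportal tertile of the 4 mice.

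Of the tested genes of iron handling, growth factor action and bile acid synthesis, Igfbp2 was the one that passed against the portal side. Over all genes, 9.56% were higher and 4.05% lower than on the central side. Against the portal side, 1.10% were higher and 0.245% lower. Of 35 iron genes 14 were tested, and 4 were higher than on the central side, namely transferrin (Trf, 0.56), the plasma haem carrier Hpx (0.86), haptoglobin (Hp, 0.43) and ceruloplasmin (Cp, 0.43). The BMP target Id3 was lower (-1.22 ± 0.39), and 0 of the 14 differed from the portal side. The hepcidin regulators Tfr2 (0.25 and 0.19) and Tmprss6 (-0.24 and 0.01) did not pass on either side. Of the growth hormone and insulin-like growth factor genes 4 of 28 were tested, and Igfbp2 was the one that passed, with Igf1 at 0.36 and -0.15, Igfbp4 at 0.01 and 0.08, and the receptor Ghr at 0.01 and -0.24. Of 16 tested bile acid genes, Cyp8b1, the sterol 12-alpha-hydroxylase that makes cholic acid, was lower than on the central side (-0.63, limma adjusted p = 0.0487) and the others did not pass on either side. So 1 of 16 bile acid genes was lower, which is near the share of 4.05% over all genes. With library totals 4 bile acid genes were lower than on the central side, and 2 iron genes were higher. Of all 1631 genes, 131 were lower and 66 higher with library totals. Of 20 cell cycle and growth genes 0 had enough UMIs to be tested.

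Within the middle tertile 14 genes passed the diet test, and in 13 of them the mice of the 2 diets did not overlap. Over all genes tested, 17.1% had both HFD mice above both LFD mice and 24.6% had them below. Since the 14 were picked by a fit of the same mice, their lack of overlap is no further support. The fit compared the middle sums of HFD mice 2 and 3 with those of LFD mice 1 and 2 over 1646 genes, and 2 genes (0.122%) were higher and 12 (0.729%) lower in HFD. At an unadjusted p under 0.05 there were 226 (13.7%). An exact permutation test of 2 mice against 2 could not go below 0.333. HFD mouse 2 gave 69 members and HFD mouse 3 gave 8, so HFD mouse 2 weighed more in the fit. With library totals the counts were 19 and 39. Without HFD mouse 2 they were 3 and 209, without HFD mouse 3 they were 9 and 16, and without either LFD mouse they were 0 and 0. The name of the raw file of HFD mouse 3 has another form than those of the other mice, and the labels do not say whether it was sequenced apart from them.

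Apoa4, an apolipoprotein of lipid-rich particles, had the larger difference of the 2 genes that passed as higher with HFD. It had 20.1 and 64.0 CPM in the middle of the LFD mice and 455 and 838 in that of the HFD mice, groups that did not overlap. The difference was 3.81 ± 0.65 (limma adjusted p = 0.0070). Mgll had 121 and 112 in LFD and 348 and 447 in HFD, also without overlap, at 1.55 ± 0.35 (limma adjusted p = 0.0457). The Mgll call was lost in every alternative fit but library totals and the fit without HFD mouse 3. Of all 1646 genes, 282 (17.1%) had both HFD mice above both LFD mice and 405 (24.6%) had them below.

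Enzymes of drug and steroid metabolism made up much of the lower group. Cyp3a11, the main drug-oxidising cytochrome of this family in mouse liver, had 2987 and 3034 CPM in LFD and 69.6 and 112 in HFD. The difference was -5.26 ± 0.41. Cyp2c70, which makes muricholic acids, fell from 824 and 712 to 53.6 and 112 (-3.63 ± 0.43), and Cyp7b1, an oxysterol hydroxylase, from 609 and 592 to 123 and 0 (-2.35 ± 0.51). The carboxylesterase Ces2a fell from 663 and 424 to 80.3 and 55.8, and the glutathione transferase Gstp1 from 3335 and 1833 to 621 and 614. In each of these 5 genes the diets did not overlap. The values of HFD mouse 3, where 1 UMI makes 55.8 CPM, rest on 2 UMIs for Cyp3a11 and Cyp2c70, 1 for Ces2a and 0 for Cyp7b1. The Cyp3a11 and Cyp2c70 calls were lost only where 1 LFD mouse was left out, while of 15 alternative fits Cyp7b1 lost its call in 10, Gstp1 in 7 and Ces2a in 6. The Cyp7b1 difference was -5.10 without HFD mouse 2.

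Selenbp2, a selenium-binding protein of the male liver, had 998 and 1161 CPM in the LFD mice and 5.36 and 0 in the HFD mice. This was 294 UMIs against 1, a ratio of summed levels of 219 with an exact 95% counting interval of 39.1 to 8694. The uridine phosphorylase Upp2 fell from 321 and 408 to 26.8 and 55.8, and the epidermal growth factor receptor Egfr from 362 and 432 to 80.3 and 112. Among secreted proteins, the acute phase protein Orm1 fell from 1688 and 1753 to 498 and 503, Serpina3k from 8880.3 and 9935 to 3829 and 2681, and the complement component C8b from 449 and 504 to 102 and 55.8. In these 6 genes too the mice of the 2 diets did not overlap. For HFD mouse 3 the value rests on 1 UMI each for Upp2 and C8b, 2 for Egfr and 0 for Selenbp2. Of 15 alternative fits, Egfr lost its call in 12, C8b in 9, Serpina3k in 8 and Orm1 in 4, and of 13 fits Upp2 lost it in 5 and Selenbp2 in 3.

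The 14th gene was Saa1, an acute phase apolipoprotein, whose values do not bear out its call. It had 295 and 200.1 CPM in LFD and 42.8 and 391 in HFD, so HFD mouse 3 was above both LFD mice. The fit gave -2.21 ± 0.44 (limma adjusted p = 0.0172), and without HFD mouse 2 the value was 0.09. The call rests on HFD mouse 2.

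**Figure D4:**
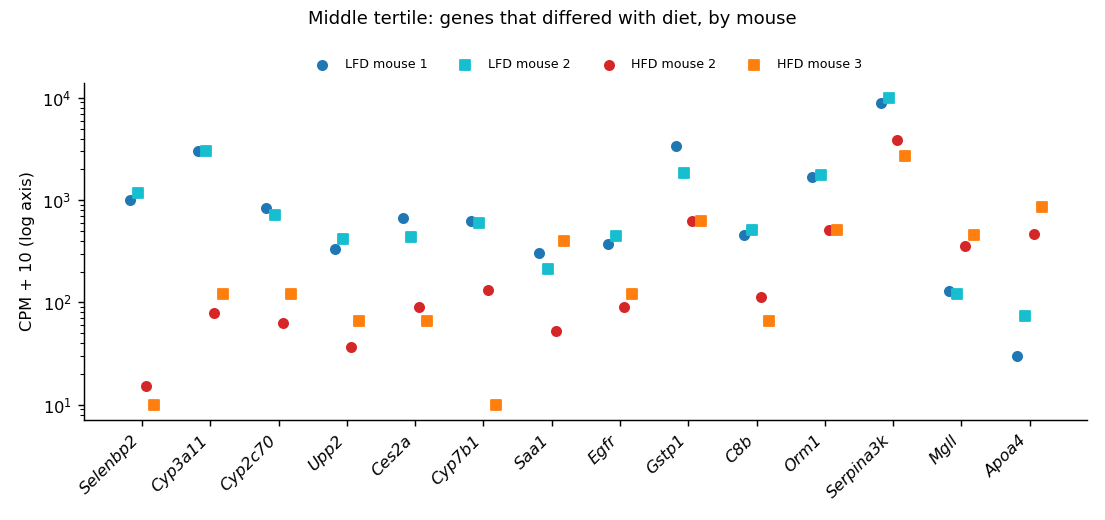
CPM plus 10 (vertical axis, log scale) in the middle tertile of each mouse for the 14 genes that passed the diet test. LFD mice (blue shades) and HFD mice (red shades) do not overlap in 13 of them, and Saa1 is the exception.

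Of 22 tested male-biased liver genes 6 were lower and 0 higher in the HFD middle tertile, against 0.729% and 0.122% of all genes, and their median was -1.39 against -0.08 over all genes. Of 33 drug and steroid genes 5 were lower (median -0.62). Of 15 major urinary protein genes 0 passed, with 14 below 0, a median of -1.40, 7 at an unadjusted limma p under 0.05, and 10 lower in HFD without overlap between diets. With library totals 5 of them passed. Over all 1646 genes, 912 were below 0, 13.7% had an unadjusted limma p under 0.05, and 24.6% had both HFD mice below both LFD mice. The summed level of the family in the middle tertile was 58023 and 72279 CPM in the LFD mice, 65778 in HFD mouse 2 and 28147 in HFD mouse 3. HFD mouse 2, with 69 of the HFD members, thus lay between the LFD mice, and the sum was lower in HFD mouse 3 alone. Among 14 lipid droplet and lipoprotein genes, Apoa4 passed and 11 were above 0 (median 0.39), and among 13 targets of the fasting receptor PPAR alpha 0 passed and 9 were above 0. For comparison, 734 of all 1646 genes were above 0. The fatty acid hydroxylase Cyp4a14 was at 4.64 ± 1.25 (limma adjusted p = 0.0873).

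Both midlobular genes had mice that did not overlap between diets, in opposite directions, and neither passed. Such a lack of overlap was common, with both HFD mice above both LFD mice in 17.1% of all genes and below them in 24.6%. Igfbp2 was 489 ± 46.7 CPM in LFD and 249 ± 42.2 in HFD (SD, n = 2 each), a difference of -1.08 ± 0.35 (limma adjusted p = 0.169). Hamp was 562 ± 285 in LFD and 2121 ± 1424 in HFD, a difference of 1.53 ± 0.37 (limma adjusted p = 0.0685). The Hamp difference passed in 5 of 15 alternative fits, with library totals among them (limma adjusted p = 0.0197).

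The diet differences of the 3 tertiles come from the same 4 mice, so their values are set side by side, and the test is that of their difference. Taken as the diet difference of the middle minus the mean of the outer tertiles, 0 of 1631 genes passed with limma voom (0%), and 95 (5.82%) had an unadjusted p under 0.05. Predicted gene models aside, the smallest p-values were those of Txndc17 (-1.92), Spag9 (3.30), Acadl (-1.59), Golgb1 (1.58) and Atp6v1f (2.08), with limma adjusted p = 0.502 for each, and the middle sum of HFD mouse 3 held 1 to 4 UMIs of each. Mgll differed between diets by 1.42 ± 0.49 in the pericentral, 1.55 ± 0.35 in the middle and 0.14 ± 0.43 in the periportal tertile, an interaction of 0.80 (limma adjusted p = 0.830). Apoa4 differed by 2.58 ± 0.72, 3.81 ± 0.65 and 2.39 ± 0.38, an interaction of 1.02 (limma adjusted p = 0.883). No diet difference was thus shown to be particular to the middle tertile.

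**Figure D5:**
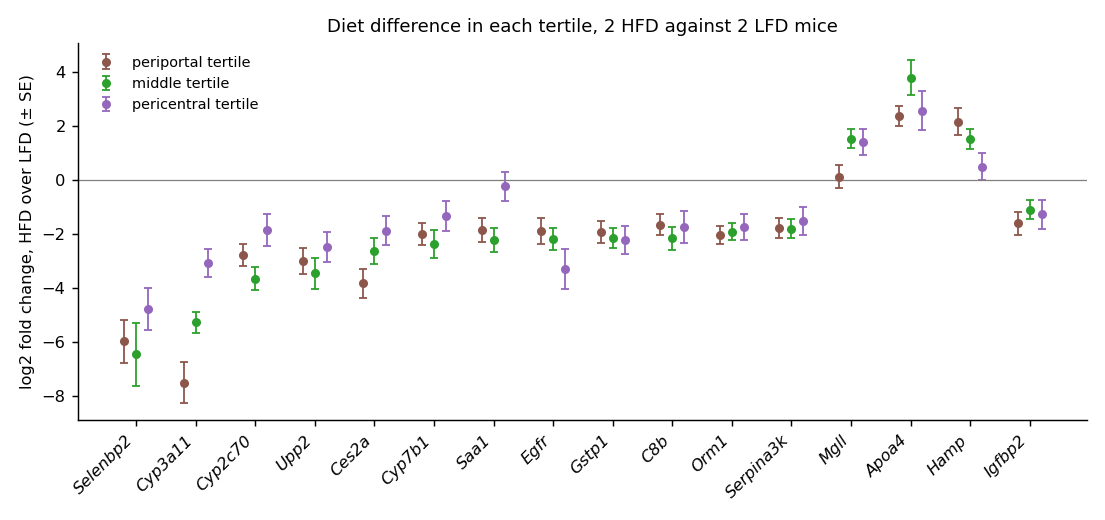
Fitted log2 fold change of HFD over LFD (vertical axis, ± SE, 2 mice a diet) in the periportal, middle and pericentral tertile for the 14 genes that passed in the middle and for Hamp and Igfbp2. Mgll is at 1.42, 1.55 and 0.14 in the pericentral, middle and periportal tertile, and the values of Selenbp2 (1 HFD UMI in the middle) and of Cyp3a11 on the portal side (3 HFD UMIs) depend on the small offset the fit adds.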

How the data were processed

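The authors deposited 1 unsmoothed table of single hepatocytes whose values are the natural log of 1 plus UMIs per 10000 (inferred from the values). Reads were aligned with STAR 2.6.0a to mm10, per the submitters' processing notes. A second table, smoothed across cells, was not used. Whole UMIs were recovered for 100% of values (tolerance 0.001) and summed per mouse and tertile. The sums were scaled with trimmed-mean factors and fitted with limma 3.58.1 (voom) in R 4.3.3. These factors were 1.34 to 1.61 in HFD mouse 3 and 0.77 to 1.08 in the other mice. Fold changes include the factors, while CPM values and the overlap of mice rest on library totals without them. Genes needed 84.6 CPM (10 UMIs at the median sum) in 4 of 12 sums, or 72.9 in 2 of 4 middle sums for diet, and 15 UMIs in all. The threshold was an adjusted p of 0.05. Tertiles of 1 mouse share an animal and a library, hence the block. Doublets were not called. Coordinates are GENCODE's for GRCm38. The scripts were tested on simulated data.

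Members and lists were chosen with earlier results of these data known. Named are the midlobular genes, the 6 nearest to a peak and to a dip in at least 3 of 4 mice (no predicted models), genes passing against the outer mean, the portal side or with diet, the 5 smallest interaction p-values, and up to 4 or more list members. Other sets named were chosen after their values were seen. Alternatives changed the scaling, filter, model, score, ranks, cells and mice.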

Additional observations from a re-analysis of the deposited data

Results flagged for a closer look

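Of 19 genes checked, 3 had 1 mouse far from the other 3 in the log2 ratio of the middle tertile over the mean of the outer tertiles (CPM plus 10). Chance gives about 1 such group in 20. For Alb the ratio was 0.4249 in LFD mouse 2 and 0.2081 to 0.2327 in the other mice. For Dpy30 it was -0.3054 in HFD mouse 3 and -0.9714 to -0.8787 in the others. For Gas5 it was -1.7486 in HFD mouse 3, the mouse with 8 members, and 0.4167 to 0.6366 in the others.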

How the results depend on the processing

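The absence of a gene passing above or below both sides held in every alternative except the adjustment of each side by itself, added after the data were seen, which gave 1. The 7 genes above the mean of the outer tertiles became 4 with library totals, 2 with a filter of 30 UMIs, 14 with no filter beyond 1 UMI, 0 with limma-trend, 0 with means of the deposited values, 1 with the score after thinning, 2 without Cyp2e1 and Cyp2f2 in the score, 0 with the middle of 5 ranks, 0 without the deepest 5% of cells and 4 without cells holding 3 or more UMIs of another cell type's markers (also added later). Lower genes became 1 with library totals, with no filter and with 5 ranks. Against the pericentral tertile, the 222 calls became 139 with no filter, 43 with limma-trend, 29 with means of deposited values and 90 with 5 ranks. Against the periportal tertile, the 22 became 14 with the filter of 30, 1 with limma-trend, 0 with deposited values, 5 after thinning and 4 with 5 ranks. Between the outer tertiles, the 352 became 229 with the filter of 30, 126 with limma-trend, 99 with deposited values and 225 with 5 ranks.

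The 2 genes higher in HFD became 19 with library totals, 0 with the filter of 30, 5 with no filter, 1 with limma-trend, 5 with deposited values, 1 with the score on recovered UMIs, 1 after thinning, 4 with 5 ranks, 1 without the deepest cells and 1 without cells with other markers. The 12 lower genes became 39, 4, 16, 5, 31, 8, 3, 10, 3 and 4 in the same order. Interactions became 8 with no filter and 1 with 5 ranks. For Igfbp2 against the outer mean, the call was lost at 0.81 with no filter, 0.89 with limma-trend, 0.22 on the natural log scale of the deposited values, 0.56 after thinning, 0.61 with 5 ranks and 0.63 without the deepest cells.

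Leaving out 1 mouse gave 0 to 6 genes above and 0 below the outer mean, 6 to 153 against the pericentral and 0 to 13 against the periportal tertile, 41 to 284 between the outer tertiles, 0 to 9 higher and 0 to 209 lower in HFD, and 0.71 to 0.96 for Igfbp2. With 1 mouse left in a diet, that mouse is assumed to vary like the others. The diet difference of Saa1 ran from -2.59 to 0.093, turning its sign without HFD mouse 2. In the fit without the mouse as a block, which ignores the pairing of tertiles within an animal, 0 genes passed against the outer mean, 2 against the pericentral and 0 against the periportal tertile, 25 between the outer tertiles, and Igfbp2 was at 0.82. No paired analysis was possible for diet because the diets share 1 replicate number, carried by different mice. A fit of all 12 sums with an estimated mouse correlation of 0.39 gave 2 higher and 13 lower. For most alternatives the cause was not tested. The members themselves depend on depth: 98 of 149 were chosen again after thinning, and 107 without Cyp2e1 and Cyp2f2. Genes short of 84.6 CPM in 4 of the 12 sums were not tested, and HFD mouse 3 adds 17906 UMIs from 8 members.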
